A study of Mus musculus with 6 samples.

Results

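The alpha subunits of heterotrimeric G proteins are described here in skin papillomas of Atf2 knockout and Atf2 wild-type mice, probe by probe. The 10 genes, Gnas, Gnai1, Gnai2, Gnai3, Gnao1, Gnaq, Gna11, Gna15, Gna12 and Gna13, were chosen from the known subunit families because the brightest Gnas probe had already been seen to be far lower in the knockout pool, so the knockout and wild-type values below are a description and carry no test. All probes whose platform annotation names a member were taken, 29 of the 46116 probes and 10 of the 17658 genes of the array. The Gnas and Gnaq genes had 6 probes each, Gnao1 had 5 and Gna11 had 4. Gnai1 and Gna13 had 2 each, and Gnai2, Gnai3, Gna15 and Gna12 had 1 each.

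A heterotrimeric G protein couples a receptor in the cell membrane to enzymes inside the cell, and its alpha subunit binds and hydrolyses GTP. Alpha subunits fall into families by their effector: Gs stimulates adenylyl cyclase and so protein kinase A, Gi and Go inhibit adenylyl cyclase, Gq and its relatives activate phospholipase C beta, and the G12 family activates exchange factors for small GTPases of the cytoskeleton. In mouse epidermis Gnas and protein kinase A are known to restrain the growth of basal and hair follicle cells, and TPA, the tumour promoter used here, acts directly on protein kinase C, which also lies downstream of Gq.

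The knockout group was a pool of RNA from the papillomas of 3 Atf2 knockout mice, and the wild-type group was a pool from 2 Atf2 wild-type mice. Both came from a mixed FVB and C57bl6 background and were about 9 months old when they bore papillomas. All mice had received the mutagen DMBA once and then TPA for 30 weeks, so the controls carried the same treatment as the knockouts. Each pool was run on 3 Illumina bead arrays, all on 1 chip. These are repeat measurements of pooled animals, so every SD, SE and p given here measures technical spread, there is no replicate of the genotype, and genotype and position on the chip cannot be told apart.

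Raw intensities were dimmer on the knockout arrays, with medians of 109.9 to 135.5 against 135.8 to 148.2 on the wild-type arrays, and knockout array 3 was the dimmest. A probe counted as above background on an array when it exceeded the commonest raw intensity of that array by 3 SDs of the values below it, a limit of 140.8 to 167.5 on the knockout arrays and 163.8 to 181.4 on the wild-type arrays. Between 28.1% and 29.9% of all probes met this on the knockout arrays and 31.7% to 33.3% on the wild-type arrays. Of 8 keratinocyte markers with a probe, 7 were above background on all knockout arrays and 8 on all wild-type arrays, and Krt14, a keratin of the basal epidermis, had a mean raw intensity of 44030 in the knockout pool and 48750 in the wild-type pool. The targeted gene does not check the labels: 3 of the 4 Atf2 probes were above background on no array, and the fourth (2260348) on 1 knockout array and 3 wild-type arrays, with the place of these probes relative to the deletion not given in the sources used here.

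Signal from the members was split between genes that were seen and genes that were not. Of the 29 probes, 16 were above background on at least 1 array, 12 on all 6 arrays and 13 on none. Gnai3 and Gna12 on their single probes and Gnao1 on all 5 probes were above background on no array, so no difference between the pools can be read for them. Gnas, Gnai1, Gnai2, Gnaq, Gna11, Gna15 and Gna13 had at least 1 probe above background on all 6 arrays. A signal filter used for the test across the array, a mean normalized log2 intensity above the median of all probes, was met by 18 of the 29 probes.

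**Figure D1:**
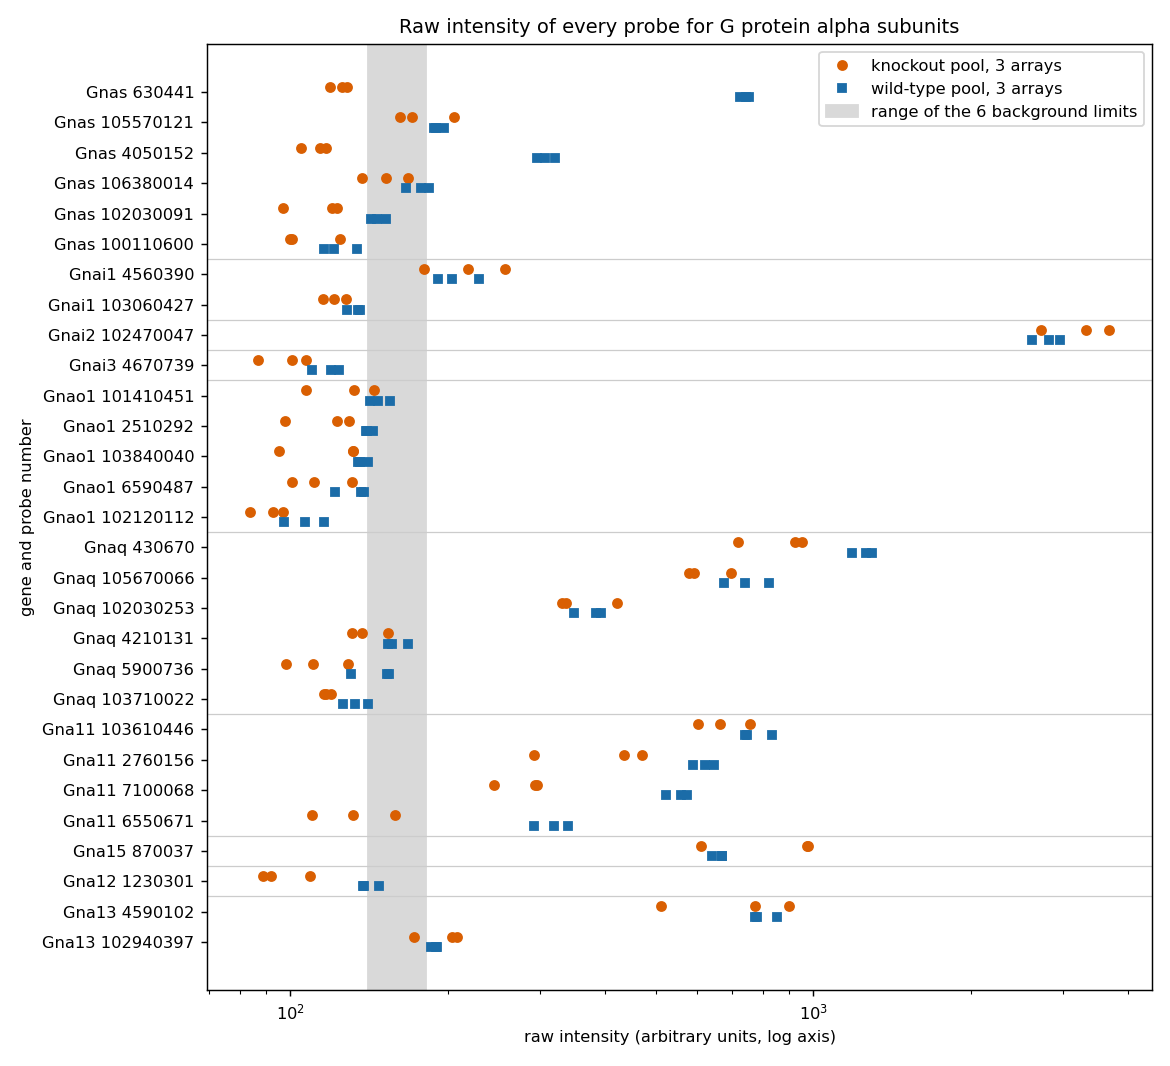
Raw intensity (log axis) of all 29 probes of the 10 alpha subunit genes, with 3 knockout arrays (circles) above 3 wild-type arrays (squares) in each line, and the grey band spanning the 6 arrays' background limits. Gnas probe 630441 lies at 119.2 to 128.1 on the knockout arrays and at 725 to 753.5 on the wild-type arrays, while probes of Gnao1, Gnai3 and Gna12 lie in or below the band in both pools.

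Gnas, on chromosome 2 (chr2:174284320-174346744, plus strand, GRCm38.p6), encodes the alpha subunit of Gs and, from further promoters of the same imprinted locus, several related transcripts. Its brightest probe (630441) read 128.1, 119.2 and 125.8 on knockout arrays 1, 2 and 3, against 753.5, 725 and 743.6 on wild-type arrays 1, 2 and 3. All knockout readings were under their background limits and all wild-type readings far above theirs. After normexp background correction and quantile normalization the probe averaged 6.62 ± 0.22 in the knockout pool and 9.32 ± 0.06 in the wild-type pool on the log2 scale (SD, n = 3 arrays each), a log2 difference of -2.70, knockout minus wild-type. As all its knockout readings were at background, its knockout level is only bounded from above: set against the lowest signal above background on each knockout array, the probe was at least 4.77-fold lower in the knockout pool. In pooled tissue fewer cells of a type and less RNA per cell cannot be told apart. The summed raw intensity of 6 fibroblast markers was 3035 to 4222 on the knockout arrays and 7931 to 8845 on the wild-type arrays, and that of 5 skeletal muscle markers 854 to 1405 and 2315 to 2488 on the knockout and wild-type arrays. That of 3 erythroid markers was 17713 to 20450 on the knockout arrays and 10641 to 11145 on the wild-type arrays. Keratinocyte markers differed both ways: Krt10, a keratin of differentiating epidermis, was at 1.52, Krt6a, a keratin of activated epidermis, at -0.58 and the desmosomal cadherin gene Dsg3 at -1.54, while Dsc3, another such gene, was at background in the knockout pool and at least 2.15-fold lower. The part of these cells in the Gnas values was not tested.

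A second Gnas probe was also lower, and others were not. Probe 4050152 read 117, 104.8 and 113.8 on the knockout arrays, against 307.1, 296.5 and 320.1 on the wild-type arrays. The bound for it is at least 1.77-fold lower (log2 difference -1.50). It too passed the background limit on the 3 wild-type arrays and on none of the knockout arrays. Probe 105570121 was above background on all 6 arrays and read 205.3, 170.7 and 162.3 on the knockout arrays, against 188.4, 196.9 and 190.2 on the wild-type arrays. Its raw values overlapped, and its normalized log2 difference was 0.25, with each knockout array above each wild-type array. Probe 106380014, above background on 1 knockout array and 2 wild-type arrays, had a log2 difference of 0.06 with overlapping arrays. The remaining Gnas probes, 102030091 and 100110600, were above background on no array. Gnas was lower on 2 of the 4 probes that gave signal, and its probes did not show the same difference. Of these 6 probes, 5 are annotated to the same RefSeq transcript of Gnas, including both that were lower and both that were not, and 100110600 to a GenBank cDNA record, so the annotation does not separate them. Probe sequences were not used here.

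**Figure D2:**
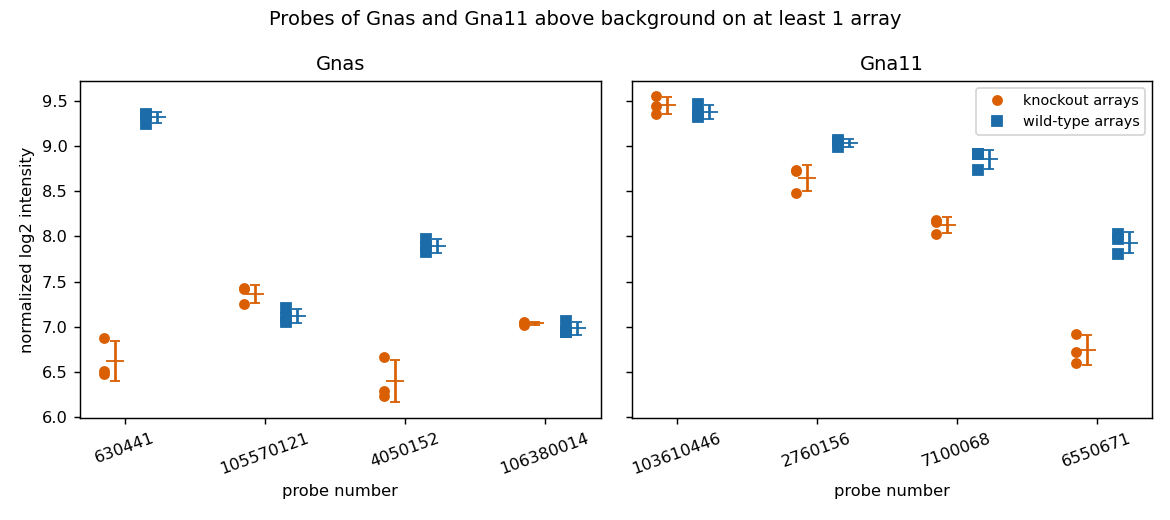
Normalized log2 intensity of the Gnas and Gna11 probes that were above background on at least 1 array; circles are 3 knockout arrays, squares 3 wild-type arrays, and the bars the mean ± SD of each pool. In Gnas probes 630441 and 4050152 the pools stand apart (differences of -2.70 and -1.50), whereas probe 106380014 shows 0.06, and in Gna11 the differences are 0.07, -0.39, -0.73 and -1.19 from left to right.

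ATF2 binds the cAMP response element (CRE), so the Gnas start regions were searched for it. RefSeq start regions (GRCm38.p6, 250 bases before to 50 after each start) were found for 9 of the 10 members, in 12 windows. The full CRE, TGACGTCA, was in 0 of the 12, against 1.79% of 32851 windows of the same length over all genes. Its core, TGACG on either strand, which is also part of the full element, was in 4 of the 12, against 20.8% of all windows. Of these, 3 were Gnas windows, 2 of them overlapping and holding the same copy, and the other was the Gnai3 window. The AP-1 site, TGACTCA on either strand, was in 0 of the 12, against 5.20% of all windows. A match in these letters is a description and not a binding site. The pair of Gnas windows below is shown because they hold the 2 separate copies of the core in the gene with the largest difference; capitals mark the core, which is on the minus strand and so reads CGTCA in the plus strand printed here, 38 bases before the first start and 216 bases before the second.

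Gnas start region chr2:174327499-174327798, plus strand: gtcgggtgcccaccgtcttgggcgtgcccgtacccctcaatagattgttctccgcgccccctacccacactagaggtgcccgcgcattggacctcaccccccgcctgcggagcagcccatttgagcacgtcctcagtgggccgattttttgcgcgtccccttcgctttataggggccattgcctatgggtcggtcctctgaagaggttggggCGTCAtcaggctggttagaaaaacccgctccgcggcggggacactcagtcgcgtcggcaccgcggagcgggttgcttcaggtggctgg

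Gnas start region chr2:174329756-174330055, plus strand: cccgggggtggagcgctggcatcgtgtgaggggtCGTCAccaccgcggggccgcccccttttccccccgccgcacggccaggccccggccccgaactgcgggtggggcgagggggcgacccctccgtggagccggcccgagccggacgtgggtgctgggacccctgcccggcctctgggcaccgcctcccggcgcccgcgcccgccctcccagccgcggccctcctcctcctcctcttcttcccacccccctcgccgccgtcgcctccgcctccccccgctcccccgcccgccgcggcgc

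These windows were 64.3% and 81.7% G or C. Which start the Gnas probes report on was not tested.

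Genes of the Gi and Go family, whose products inhibit adenylyl cyclase, were at or slightly above the wild-type level where they were seen. Gnai2 (chr9:107614125-107635391), the inhibitory subunit of leukocytes and many other cells, read 3682, 3320.9 and 2726 on the knockout arrays, against 2614.3, 2959.7 and 2820 on the wild-type arrays. The raw values overlapped, but after normalization the 3 knockout values all exceeded the wild-type ones, at 11.72 ± 0.04 against 11.33 ± 0.09 on the log2 scale (SD, n = 3 arrays each), a log2 difference of 0.39. Gnai1 (chr5:18265135-18360413), its close relative, read 257, 218.5 and 180.5 on the knockout arrays, against 203.8, 191.2 and 229.6 on the wild-type arrays, on probe 4560390. This gave a log2 difference of 0.45, again with overlapping raw values and normalized values that did not overlap, while its other probe was at background. Gnai3 (chr3:108107275-108146152) read 86.9 to 107.2 on the knockout arrays and 109.9 to 123.8 on the wild-type arrays, under the background limit throughout. Gnao1 (chr8:93810153-93969388), the subunit that is abundant in neurons, read 83.7 to 144.3 over its 5 probes on the knockout arrays and 97.2 to 155.2 on the wild-type arrays. Of 4 neuron and Schwann cell markers with a probe, Snap25, Syt1 and S100b were likewise above background on no array. The other, Tubb3, was above background on all arrays of both pools. Its raw values overlapped, and its normalized log2 difference was 0.64.

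Within the Gq family, which signals through phospholipase C beta, the probes of Gna11 disagreed most. Gna11 (chr10:81528724-81545162) had 4 probes, all above background on every wild-type array. Its brightest, 103610446, read 757.2, 662.5 and 601 on the knockout arrays, against 745.5, 833.1 and 741.1 on the wild-type arrays, with overlapping values and a log2 difference of 0.07. Probe 2760156 read 469.8, 433.6 and 292 on the knockout arrays, against 620.9, 645.6 and 589.8 on the wild-type arrays (log2 difference -0.39). Both pools were well above background on it, and they did not overlap. Probe 7100068 read 296.2, 294.1 and 244.9 on the knockout arrays, against 573, 523.1 and 557.7 on the wild-type arrays (log2 difference -0.73). Probe 6550671 read 158.6, 131.8 and 109.8 on the knockout arrays, against 292.2, 338.9 and 318.9 on the wild-type arrays, and was above background on no knockout array, so it was at least 1.83-fold lower (log2 difference -1.19). The 3 lower probes are annotated to the RefSeq transcript of Gna11 and the brightest to a GenBank cDNA record. In Gnas, by contrast, probes of the same RefSeq transcript fell on both sides.

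Gnaq (chr19:16132684-16388520), the founding member of that family, differed by less than 2-fold on every probe. The brightest, 430670, read 921.9, 949.4 and 717.3 on the knockout arrays, against 1187.1, 1263.4 and 1293.2 on the wild-type arrays, without overlap and with a log2 difference of -0.32. Probe 105670066 was at 0.02 with overlapping arrays, and probe 102030253 was at 0.32 with raw values of 331.4 to 420.6 on the knockout arrays and 348.2 to 393 on the wild-type arrays. The other 3 Gnaq probes were above background on no array. The 3 probes with signal thus ranged from -0.32 to 0.32, on either side of 0.

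Gna15 (chr10:81502313-81524447), which couples many receptors to phospholipase C beta and is known from blood cells and epithelia, had the largest positive difference among the members. It read 977.5, 971.8 and 609.5 on the knockout arrays, against 668.8, 667.6 and 639.4 on the wild-type arrays. Knockout array 3, the dimmest array, lay below the wild-type arrays in raw intensity, and after normalization its value too exceeded theirs, as did the other knockout arrays, at 9.77 ± 0.18 against 9.13 ± 0.02 on the log2 scale (SD, n = 3 arrays each; difference 0.64, or 1.56-fold). Leukocyte markers stood beside this as follows: 6 of 7 had a probe, and 3 were above background on all arrays of each pool. The summed raw intensity of the 6 was 3687 to 5172 on the knockout arrays and 3456 to 3652 on the wild-type arrays. Laptm5 alone gave 2275 to 3558 and 2042 to 2212 of these sums. In raw intensity Laptm5 and Coro1a were higher in the knockout pool, Ptprc, Itgam and Adgre1 were lower, and Cd3e overlapped. Cd3e and Itgam were above background on no array. Of the 3 with signal throughout, Laptm5 and Coro1a, genes of blood cells, had log2 differences of 0.69 and 0.82, and Adgre1, a macrophage gene, 0.001. Ptprc, the pan-leukocyte gene, was above background on no knockout array and 2 wild-type arrays. Of 4 neutrophil markers, all above background on all arrays, Retnlg was at 2.41, S100a8 at 0.08, S100a9 at 0.07 and Csf3r at -0.04. The part of these cells in the Gna15 and Gnai2 values was not tested.

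In the G12 family only Gna13 gave signal. Gna13 (chr11:109362794-109401369) read 898.1, 772.6 and 510.5 on the knockout arrays, against 780.4, 772.6 and 851.4 on the wild-type arrays, on its brightest probe (4590102). These overlapped, with a log2 difference of 0.08. Its other probe, 102940397, read 208.7, 203.5 and 172.2 on the knockout arrays, against 190.8, 185.4 and 190.2 on the wild-type arrays, with a log2 difference of 0.44 and no overlap after normalization. Gna12 (chr5:140759944-140830431) read 109.1, 91.8 and 88.5 on the knockout arrays, against 138.1, 137.5 and 147.7 on the wild-type arrays, below the background limit on every array, and is given no fold.

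Over all 29 probes, 3 were at least 2-fold lower in normalized level, 630441 and 4050152 of Gnas and 6550671 of Gna11, and 0 were at least 2-fold higher, beside 1.97% lower and 0.492% higher among all 46116 probes. The members' median log2 difference was -0.0064 and that of all probes 0.0269. With the brightest probe of each gene, 1 of the 10 members (Gnas) was at least 2-fold lower and 0 were higher, beside 1.71% and 0.765% of 17658 genes. The normalized knockout arrays all lay below the wild-type arrays on 10 of the 29 probes and all above on 6, beside 13.6% and 17.4% of all probes. Nothing is read from these shares, since the members were picked with this contrast known. Among the 12 member probes above background on all 6 arrays, differences ran from -0.73 to 0.64. The 3 probes at least 2-fold lower were above background on no knockout array, so this set leaves them out.

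**Figure D3:**
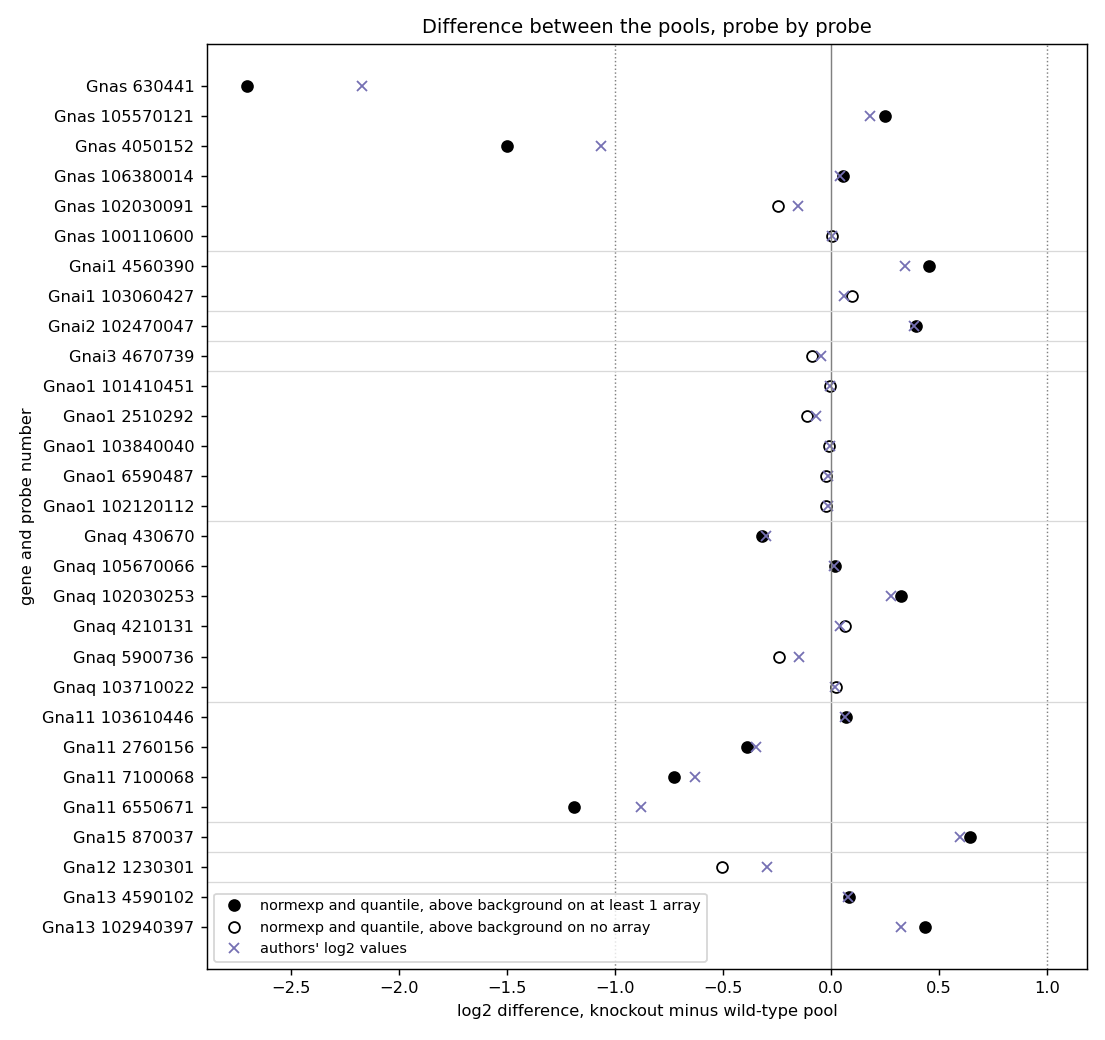
Log2 difference (knockout minus wild-type pool) of each of the 29 probes, from the background-corrected and quantile-normalized raw intensities (circles, open where the probe was above background on no array) and from the authors' log2 values (crosses); dotted lines mark 2-fold. The 3 probes past the lower line are 630441 and 4050152 of Gnas and 6550671 of Gna11, and the last of these lies inside it with the authors' values (-0.88).

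In the authors' deposited log2 values each of the 29 probes had the same sign of difference, and no difference was larger. The brightest Gnas probe was 7.18, 7.20 and 7.43 on the knockout arrays, against 9.46, 9.38 and 9.48 on the wild-type arrays, a difference of -2.17. Probe 4050152 of Gnas was at -1.06 and probes 6550671, 7100068 and 2760156 of Gna11 at -0.88, -0.63 and -0.35. Gna15 was at 0.60, Gnai2 at 0.38 and the brightest Gnaq probe at -0.30.

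The genes whose 6 arrays most resembled the brightest Gnas probe, by Euclidean distance of log2 values centred on the wild-type mean and among 8596 genes with signal on all wild-type arrays, were Atf4, Prl2c3, Rab1b, Hnrnpk and Psma1, at distances of 0.227 to 0.400 against a median of 4.85. The likeness is over 6 arrays of 2 pools, so it reflects how far each probe was below its wild-type mean. Atf4, a transcription factor of the stress response, was at -2.65 and read 228.5, 233.1 and 202.7 on the knockout arrays, against 1498.4, 1476 and 1506.4 on the wild-type arrays. Prl2c3, a prolactin family gene, was above background on no knockout array and at least 5.29-fold lower. Rab1b, a GTPase of vesicle traffic, was at -2.57, Hnrnpk, an RNA-binding protein gene, at -2.87, and Psma1, a proteasome subunit gene, at -2.53. Rab1b and Hnrnpk were each above background on only 2 knockout arrays, so their knockout values lay near the background limit.

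Around the alpha subunits, 132 genes of the same signalling chain were listed, of which 119 were on the array and 87 were tested with their brightest probe. The signal filter did not require signal above background, so some tested genes were at background on every array. No difference can be read for those. With limma over all 23058 tested probes, a gene passed with a Benjamini-Hochberg adjusted p under 0.05 and a 2-fold or larger difference. Of the 87, 5 fell and 0 rose, beside 2.48% falling and 1.12% rising among all 12096 tested genes, and their median log2 difference was 0.075 against 0.0773 for all tested genes. Without the fold limit 19 of the 87 were higher and 12 lower at that adjusted p, beside 24.3% higher and 15.7% lower among all tested genes. At an unadjusted p under 0.05 the counts were 22 higher and 13 lower, beside 29.7% and 18.1%. Without the fold limit each of these shares of the 87 was below that of all tested genes. With the fold limit the share that fell was above it and the share that rose below it. The count that fell depends on the processing: it was 2 with the authors' values and 3 without background correction. Pde3b and Pde7a, among the 5, were above background on no knockout array.

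Beta and gamma subunits form the dimer that the alpha subunit releases. Of 5 tested genes listed as beta subunits, among them the beta-like Gnb1l, 1 fell and 0 rose. Gnb1, the beta subunit found in most cells, read 1002.8, 978.4 and 1029.1 on the knockout arrays, against 3979.2, 3690.4 and 4117 on the wild-type arrays, a log2 difference of -1.81 (SE 0.12, limma adjusted p = 1.75e-07). Its pools were far apart and well above background, on the gene's only tested probe. Of 9 tested gamma subunit genes 0 passed in either direction, and the brightest, Gng12, was at -0.12 on its brightest probe (limma adjusted p = 0.522). Another Gng12 probe (100060446), picked after its values were seen, fell to 229.9 in the knockout pool, against 863.9 in the wild-type pool (log2 difference -1.75, adjusted p = 2.95e-08), and a further probe was at -0.79, so Gng12 also differed from probe to probe.

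Tested genes that act on or beside the alpha subunits did not pass on their brightest probes, but several gave little or no signal. Rgs9 and Rgs17 were above background on no array, so no difference can be read for them. Rgs1, Grk3, Grk5 and Gpsm3 were above background on no knockout array. Among 12 tested RGS genes, which speed GTP hydrolysis by alpha subunits, 0 passed on their brightest probes, with Rgs12 as the brightest at 0.34 (limma adjusted p = 0.008). Another probe of Rgs5, also picked after its values were seen, was above background on no knockout array and passed as at least 1.67-fold lower. The brightest Rgs5 probe was higher in the knockout pool, at a log2 difference of 0.67. Of 5 tested receptor kinase and arrestin genes 0 passed, with Grk6 at -0.41 (adjusted p = 0.00247), and of 3 chaperones and regulators 0 passed, with Gpsm1 at 0.15 (adjusted p = 0.171). Gna14, the only other alpha subunit gene tested, was at 0.41 (adjusted p = 0.0158).

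In the cAMP chain downstream of Gs, 0 of 8 tested genes for adenylyl cyclases and their associated proteins and 0 of 8 for protein kinase A and cAMP sensors passed. The brightest were Cap1, a cyclase-associated actin regulator, at -0.29 (limma adjusted p = 0.00993) and Prkar1a, a regulatory subunit of protein kinase A, at 0.36 (adjusted p = 0.0041). Another Prkar1a probe (107040050) was above background on no knockout array and on all 3 wild-type arrays, at least 1.45-fold lower. Of 11 tested cAMP phosphodiesterase genes, which break down cAMP, 2 fell and 0 rose. Pde3b read 100.2, 111 and 74 on the knockout arrays, against 226.1, 250.5 and 236 on the wild-type arrays, which gives at least 1.31-fold lower (adjusted p = 2.17e-06). Pde7a read 123.8, 122.3 and 113.8 on the knockout arrays, against 263.8, 255.4 and 268.9 on the wild-type arrays, which gives at least 1.47-fold lower (adjusted p = 1.27e-06). Both were above background on no knockout array, so their 2-fold calls used knockout values at background, and both bounds are under 2-fold. With the authors' values neither gene reached 2-fold (-0.93 and -0.76). Of 7 tested genes for Gs-coupled receptors 0 passed, with Vipr2 the brightest at 0.19 (adjusted p = 0.0852). Only Vipr2 was above background on all arrays. Vipr1, Calcrl, Crhr1 and Mc5r were above background on no array, so no difference can be read for them. Ptger2 was above background on wild-type arrays only, and the brightest Ptger4 probe on knockout arrays only.

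Downstream of Gq and of G12, 1 gene fell in each list and 0 rose. Prkch, the protein kinase C of differentiating keratinocytes, read 190.9, 197.7 and 144.2 on the knockout arrays, against 413.8, 405.5 and 414.7 on the wild-type arrays (log2 difference -1.04, SE 0.10, limma adjusted p = 4.63e-06), the fall among 10 tested genes of that list; with the authors' values it was at -0.83. Rhoa, the GTPase that the G12 family activates through its exchange factors, read 1808.4, 1833.2 and 1741.9 on the knockout arrays, against 4174.6, 4563.8 and 4331.2 on the wild-type arrays (log2 difference -1.13, SE 0.10, adjusted p = 1.89e-06), the fall among 8 tested genes. Gnb1 and Rhoa passed in all 16 settings run, the main one included, while Pde3b passed in 12, Pde7a in 13 and Prkch in 13.

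**Figure D4:**
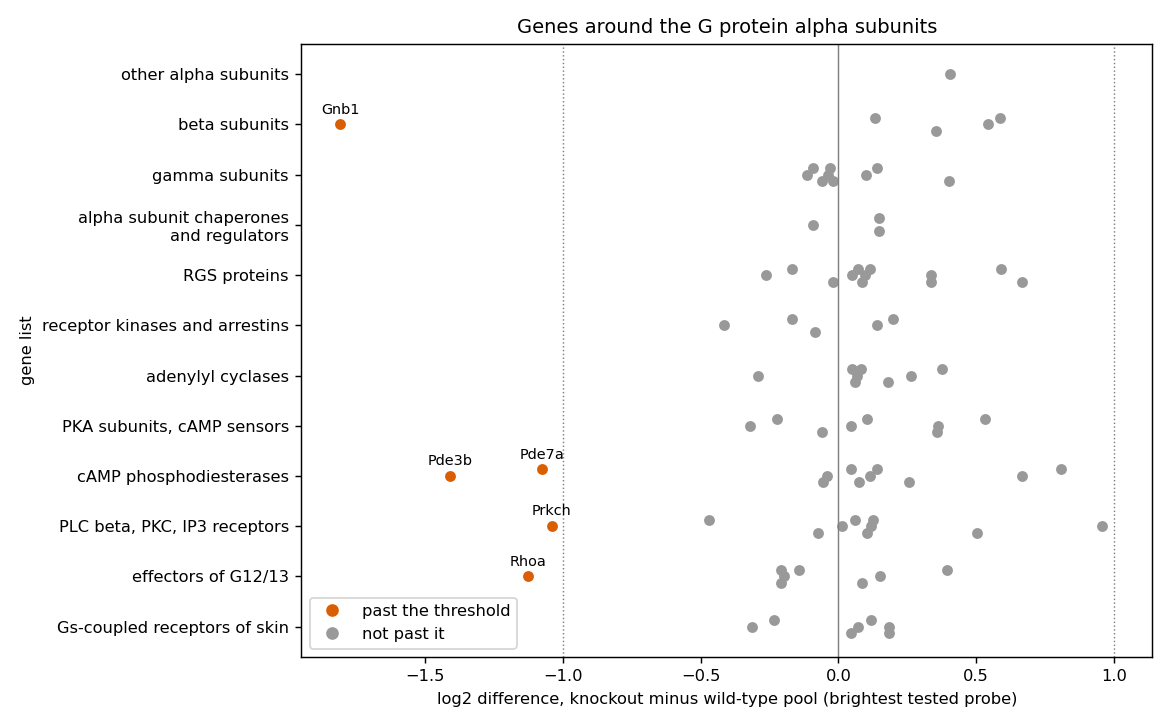
Log2 difference (knockout minus wild-type pool) of the brightest tested probe of 87 genes around the alpha subunits, by list; coloured points passed the threshold of adjusted p under 0.05 and 2-fold (dotted lines), grey points did not. The 5 genes past it, Gnb1, Pde3b, Pde7a, Prkch and Rhoa, all lie on the lower side.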

How the data were processed

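Papilloma RNA was measured on 6 arrays, 3 of a knockout pool and 3 of a wild-type pool, grouped by the genotype in the titles. Per the file headers, the deposited files give each probe's raw, linear intensity. Per the submitters' processing notes, the software was BeadStudio 3. There are also authors' deposited log2 values, whose columns share a common distribution and keep each array's raw rank order. How they were normalized is not stated in the labels, and they served as an alternative.

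Raw intensities were corrected with limma's normexp method (offset 50), put on the log2 scale and quantile-normalized. A larger offset shrinks differences between dim values. Probes with a mean above the median of all 46116 were tested across the array (23058 probes) with lmFit and eBayes, trend on (limma 3.58.1 in R 4.3.3), two-sided, with Benjamini-Hochberg adjustment. The fit was tested on simulated data. Members are given without p-values. For a bound, each array of the dim pool takes the probe's own normalized value or the lowest one above background, whichever is higher, and their mean is set against the bright pool's mean. The background limit was set after the data had been seen.

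Gene names came from the platform annotation, with 29534 probes carrying 1 symbol, 11 several and 16571 none or not listed, and 29476 symbols were looked up by Entrez identifier in a RefSeq table of GRCm38.p6. A gene is represented by its probe with the highest mean. Members, gene lists and tests were chosen with earlier results of these data known. Named genes are all members with every probe, up to 3 rises and 3 falls of each list or its brightest gene, the 5 genes nearest to Gnas, and Atf2. Arrays with the same number share only that number. Alternatives were another offset, no correction, subtraction of the mode with a floor of 50, scaling to the 75th percentile, the authors' values, other filters, a replicate block, no trend and leaving out each array.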

Additional observations from a re-analysis of the deposited data

How the results depend on the processing

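The brightest Gnas probe was lower in the knockout pool in every setting run, at -2.17 with the authors' values, -2.34 without background correction, -3.25 with an offset of 16 and -3.47 with the mode subtracted, and from -2.89 (without knockout array 3) to -2.62 with single arrays omitted. With the background limit at 2 or 5 SDs, chosen after seeing the data, it was at least 5.46-fold and 3.76-fold lower. Exactly 1 member was at least 2-fold lower on its brightest probe in each setting, and 3 member probes were, or 2 with the authors' values and without background correction. Among pathway genes 5 fell, but 2 with the authors' values, 3 without background correction and 3 among probes above background on all 6 arrays. With the mode subtracted 4 fell, and with single arrays omitted 4 to 5. In the main setting 0 rose, but 1 with an offset of 16, 2 with the mode subtracted and 0 to 1 with single arrays omitted. The gene that rose was Prkcb with the offset of 16 and without knockout array 1, and Prkcb and Pde4b with the mode subtracted. Over all tested probes 227 rose and 899 fell. With the authors' values 137 rose and 611 fell, and without background correction 162 rose and 693 fell. An offset of 16 gave 389 rises and 1259 falls, and subtraction of the mode 735 and 1291. Among probes above background on all 6 arrays 183 rose and 450 fell. The cause of these shifts was not tested. Scaling to the 75th percentile put the median difference of all probes at 0.178, against 0.0269, and moved the undetected Gnai3 and brightest Gnao1 probes to 0.11 and 0.14. Same-numbered arrays of the pools had correlations of deviations of 0.106, -0.13 and 0.0434, so the numbers do not pair them. With a replicate block 227 probes rose and 901 fell and the pathway counts were 0 and 5. Dim signal limits what can be said of Gnai3, Gnao1 and Gna12, and the knockout level of 2 Gnas probes and of Gna11 probe 6550671 is a bound only.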
